A study of Rattus norvegicus with 9 samples.

Results

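The genes described here are 9 cadherins, Cdh2, Cdh3, Cdh4, Cdh5, Cdh6, Cdh10, Cdh11, Cdh13 and Cdh15, out of the 35362 genes in the count table. They were chosen by symbol, as cadherins that mesenchymal cells or their neighbours can carry, and because Cdh3 was nearly absent from one group of cells and present in another. The level of Cdh3 and the difference between EASCs and SASCs were therefore part of the choice and are given as a description, without a test.

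RNA was sequenced from adipose-derived mesenchymal stem cells (ASCs) of male Sprague Dawley rats aged 6 weeks, with no genetic alteration or drug named for any group. The rats were starved and then anesthetised before the tissue was taken. SASCs came from subcutaneous fat of the groin, PASCs from fat around the kidney, and EASCs from epididymal fat at the testis. All were freed with collagenase, selected by attachment to plastic, grown in high glucose medium with serum, and taken at passage 3. There were 3 samples in each group. The methods describe RNA taken from single wells of culture plates, and all sample labels begin with the same prefix, whose meaning is not given. Whether the samples of a group were taken from different animals is not given in the sources used here. The p-values therefore measure only the spread between these samples, which may be technical.

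Cadherins are membrane proteins that hold neighbouring cells together through calcium-dependent binding between their outer domains. The classical ones carry a cytoplasmic tail that binds p120-catenin and beta-catenin or plakoglobin, and alpha-catenin then links the complex to actin. In mesenchymal cells the cadherins best known are N-cadherin (Cdh2) and OB-cadherin (Cdh11), while VE-cadherin (Cdh5) is the adhesion protein of endothelial junctions. T-cadherin (Cdh13) has no cytoplasmic tail, is anchored to the membrane by a lipid, and binds adiponectin.

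Of the 9 genes, 5 lie on chromosome 19 (Cdh3, Cdh5, Cdh11, Cdh13 and Cdh15), 2 on chromosome 2 (Cdh6 and Cdh10), and 1 each on chromosomes 3 (Cdh4) and 18 (Cdh2). Positions are given as deposited and taken as the build rn6, which the methods name, while the submitters' processing notes list rn5. The genes listed as overlapping Cdh2, Cdh10 and Cdh13 had no count in any sample, and no gene in the table overlapped the others.

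Library totals ranged from 17591916 to 30299032 counts, and ribosomal RNA genes took from 10.4% of the counts in a SASCs sample to 40.3% in an EASCs sample. Levels are given as CPM (counts scaled to a fixed library size) after TMM scaling, a correction for library composition, and as FPKM, the same value per kilobase of the exonic length listed for each gene, where genes are compared with each other. At these depths 3 counts corresponded to between 0.104 and 0.159 CPM. Of the 9 cadherins, 7 passed the filter on low counts and were tested among 14770 genes, and Cdh4 and Cdh10 did not pass. A gene was called a DEG where groups differed by more than 2-fold with an adjusted p under 0.05 in edgeR's quasi-likelihood test with Benjamini-Hochberg adjustment. The label of mesenchymal cells was checked with 10 markers, all of which were tested, and their summed level was 5374 to 5699 FPKM for SASCs, 8716 to 9786 for PASCs and 8320 to 8974 for EASCs. In EASCs against SASCs 1 marker was a higher DEG, 1 was lower and 8 were not DEGs, beside 13.6% of all genes tested higher and 14.2% lower. In PASCs against SASCs none was higher, 1 was lower and 9 were not DEGs, beside 12.0% higher and 14.9% lower. Eng, endoglin, was the marker higher in EASCs, by 1.77 on the log2 scale (adjusted p = 3.91e-20 by edgeR's quasi-likelihood test). Markers that were not DEGs could still differ by less than 2-fold without overlap, such as Col1a1 at 0.93 and Thy1 at -0.43 in EASCs against SASCs. Most of the summed level came from Col1a1 and other abundant genes, and Pdgfra, a receptor known from adipose progenitors, was lower in both visceral groups, at 1543 ± 37.0 CPM in SASCs, 278 ± 17.6 in PASCs and 235 ± 8.46 in EASCs, with log2 fold changes against SASCs of -2.47 and -2.72 (edgeR's quasi-likelihood test, adjusted p = 3.51e-23 and 4.19e-24).

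Cdh2, N-cadherin, was the most abundant of the 9 genes per length in SASCs and EASCs, and it was highest in EASCs and lowest in PASCs. The gene lies on chromosome 18 from 8146971 to 8366037, on the minus strand. Cdh2 stood at 66.1, 64.6 and 71.3 CPM in the SASCs samples, at 43.8, 46.2 and 49.6 CPM in PASCs, and at 131.0, 129.95 and 133.8 CPM in EASCs. No group overlapped another. PASCs were below SASCs by a log2 fold change of -0.53 (SE 0.0615), with an adjusted p of 1.56e-08 in edgeR's test, which is less than a 2-fold difference and so not a DEG. EASCs were above PASCs by 1.50 on the log2 scale (SE 0.0607, adjusted p = 4.05e-17 by edgeR's quasi-likelihood test), and above SASCs by 0.97 (SE 0.0590), the last given without a test.

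Cdh3, P-cadherin, a classical cadherin best known from basal epithelia, was close to absent from SASCs and abundant in both visceral groups. It lies on chromosome 19 from 38668953 to 38719823, on the plus strand. The SASCs samples held 2, 3 and 3 counts of Cdh3, the PASCs samples 933, 971 and 777, and the EASCs samples 1571, 1578 and 1513. On the CPM scale the SASCs samples stood at 0.0695, 0.127 and 0.146, the PASCs samples at 35.7, 36.3 and 41.1, and the EASCs samples at 65.8, 64.0 and 67.7. From the pooled counts the level in EASCs was 598 times that in SASCs, with a 95% exact counting interval of 303 to 1387, and the level in PASCs was 340.0 times that in SASCs, with an interval of 172 to 788. EASCs held 1.76 times as much Cdh3 as PASCs (interval 1.68 to 1.85), and these samples did not overlap. Counting intervals here cover counting error only, and not the spread between samples.

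Cdh15, M-cadherin, which is known from skeletal muscle precursors, was near the floor of detection in every group. It lies on chromosome 19 from 55669661 to 55689986. The samples held 2, 3 and 0 counts for SASCs, 12, 7 and 9 for PASCs, and 5, 11 and 5 for EASCs. The pooled ratio of PASCs to SASCs was 5.68, with a 95% counting interval of 2.17 to 18.8, and that of EASCs to SASCs was 4.31, with an interval of 1.58 to 14.6. Cdh15 passed the filter on low counts through the visceral groups, so no test against SASCs is given. The fitted log2 fold change of PASCs against SASCs was 2.44 (SE 0.773), and was 3.14 without SASCs replicate 2 and 1.98 without SASCs replicate 3. That of EASCs against SASCs was 2.03 (SE 0.808), and was 2.73 without SASCs replicate 2. EASCs and PASCs overlapped (log2 fold change -0.41, SE 0.599, adjusted p = 0.658 by edgeR's quasi-likelihood test). Of 9 markers of muscle progenitors, Pax7, Myf5 and Myog were at 0 counts in all 9 samples, while the summed level was 5.97 to 7.12 FPKM for SASCs, 14.5 to 16.0 for PASCs and 86.2 to 93.2 for EASCs, most of it from desmin (Des). Pax3 had 80 counts in PASCs and none in the other groups, and Myod1 had 20 counts in SASCs, 28 in PASCs and none in EASCs. The part of such cells in the level of Cdh15 was not tested.

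Cdh4, R-cadherin, had 2 counts in PASCs replicate 2 and none in any other sample. Cdh10, a type II cadherin known from the nervous system, had no count in any sample. At this depth neither gene was detectable above the 3 counts that a count of 0 allows.

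**Figure D1:**
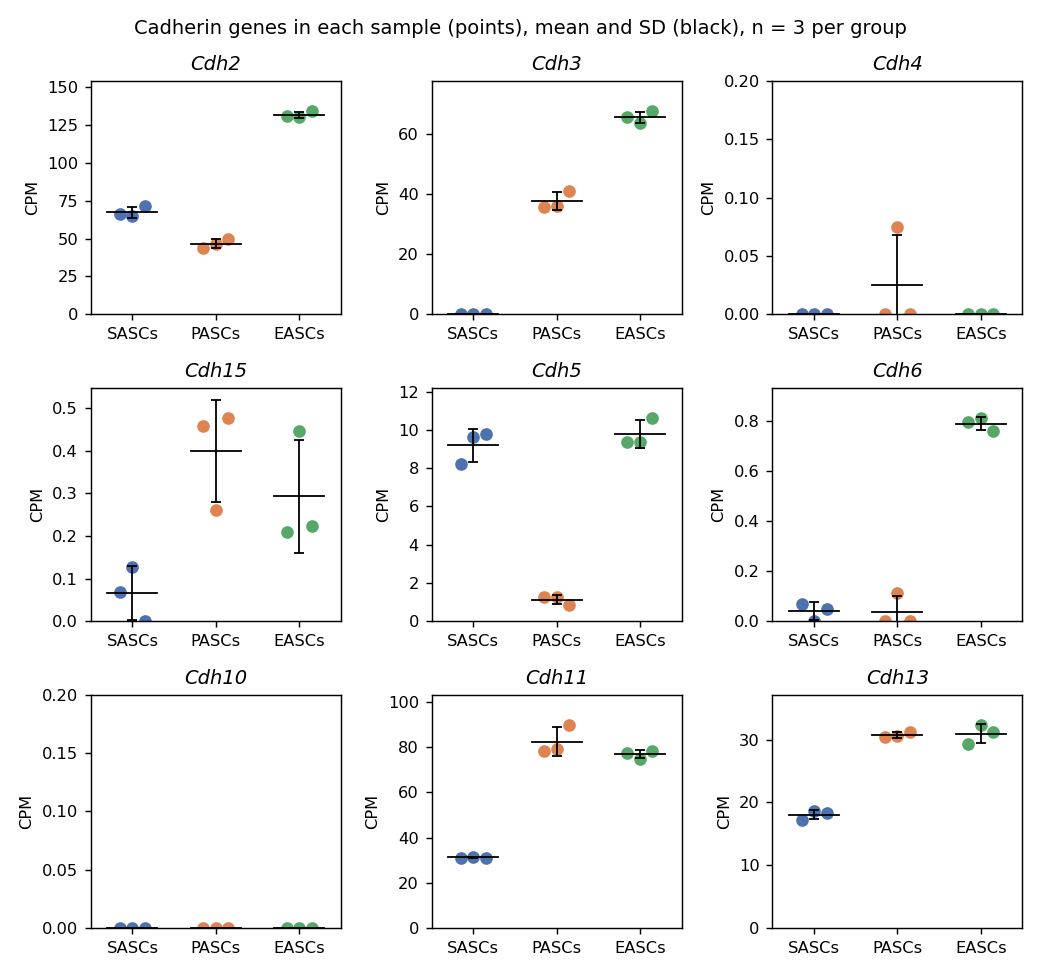
TMM-scaled CPM (vertical axes, each panel on its own scale from 0) of the 9 cadherin genes in SASCs, PASCs and EASCs, with each sample as a point and the group mean and SD in black (n = 3). Cdh2 is highest in EASCs, Cdh3 is near 0 in SASCs, Cdh5 is low in PASCs, and Cdh11 and Cdh13 are at like levels in PASCs and EASCs.

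Among the type II cadherins, Cdh11 was the most abundant and was higher in both visceral groups than in SASCs. It is known as OB-cadherin, from osteoblasts and other mesenchymal cells, and lies on chromosome 19 from 2393059 to 2551245. Its levels were 31.0, 31.5 and 31.1 CPM in SASCs, 78.3, 79.3 and 89.8 CPM in PASCs, and 77.6, 74.9 and 78.4 CPM in EASCs. Every PASCs and EASCs sample was above every SASCs sample. Cdh11 rose by 1.40 on the log2 scale from SASCs to PASCs (SE 0.0644, adjusted p = 6.95e-17 by edgeR's quasi-likelihood test), and the value for EASCs against SASCs was 1.30 (SE 0.0644), not tested. Without TMM scaling that last value was 0.90, under the 2-fold threshold. EASCs and PASCs overlapped, with a log2 fold change of -0.10 (SE 0.0607, adjusted p = 0.248 by the same edgeR test).

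Cdh5, VE-cadherin, was low in PASCs and at like levels in SASCs and EASCs. Its locus is on chromosome 19 from 1025122 to 1074333, on the minus strand. Cdh5 stood at 8.20, 9.64 and 9.76 CPM in SASCs, at 1.26, 1.27 and 0.847 CPM in PASCs, and at 9.34, 9.36 and 10.6 CPM in EASCs. The PASCs samples lay below all others. Cdh5 fell by 2.99 on the log2 scale from SASCs to PASCs (SE 0.178, adjusted p = 2.11e-14) and EASCs exceeded PASCs by 3.08 (SE 0.177, adjusted p = 8.13e-14), both by edgeR's quasi-likelihood test. EASCs and SASCs overlapped, with a value of 0.09 (SE 0.134) that became -0.32 without TMM scaling.

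Of 12 endothelial markers, 10 were tested, and in PASCs against SASCs 7 were lower, 1 was higher and 2 were not DEGs, beside 14.9% of all genes tested lower and 12.0% higher. Some of the 7, among them Vwf with 41 counts and Emcn with 23 in PASCs, passed the filter on low counts through the other groups, so the counts are a description. Pecam1, an adhesion protein of endothelial cells, had a log2 fold change of -3.20 (SE 0.192, adjusted p = 2.63e-14) and Kdr, a VEGF receptor, one of -3.45 (SE 0.152, adjusted p = 2.51e-17), both by edgeR's quasi-likelihood test. Tek, the angiopoietin receptor, was the marker that rose, by 1.71 (SE 0.153, adjusted p = 1.28e-10 by that test). In EASCs against PASCs 8 of the 10 were higher and none lower, beside 5.19% and 2.20% of all genes tested, and in EASCs against SASCs 2 were higher and 1 lower, beside 13.6% and 14.2%. The summed level of the 12 markers was 32.6 to 34.2 FPKM for SASCs, 20.4 to 22.4 for PASCs and 30.6 to 33.4 for EASCs, and Robo4 held no counts in PASCs and EASCs and 3 in SASCs. In bulk samples fewer cells of a type and less RNA per cell cannot be told apart, and the part of endothelial cells in the level of Cdh5 was not tested.

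**Figure D2:**
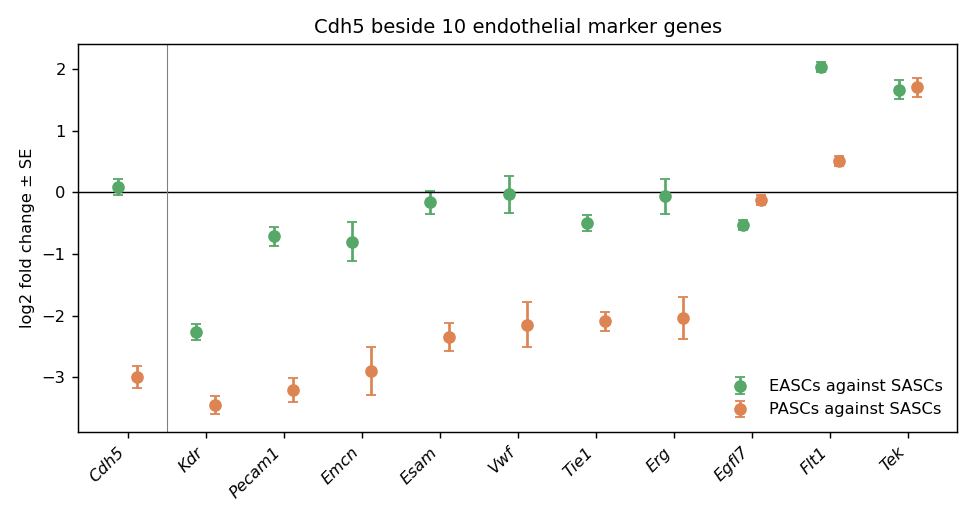
Log2 fold change (vertical axis) with SE for Cdh5 and the 10 endothelial markers tested, EASCs against SASCs in green and PASCs against SASCs in orange. In PASCs, Cdh5 and 7 of the markers lie below -2, while Egfl7, Flt1 and Tek do not.

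Cdh6, K-cadherin, which is known from kidney development, was low in EASCs and at 3 counts or fewer in each sample of the other groups. It lies on chromosome 2 from 63100723 to 63246618, on the minus strand. The SASCs samples held 2, 0 and 1 counts, the PASCs samples 0, 3 and 0, and the EASCs samples 19, 20 and 17. All 3 EASCs samples stood above all others. The pooled ratio of EASCs to PASCs was 18.9, with a 95% counting interval of 6.14 to 94.4, and PASCs replicate 2 held all the PASCs counts. Cdh6 passed the filter on low counts through EASCs, so no test of EASCs is given. The ratio of EASCs to SASCs was 19.2 (interval 6.23 to 95.7), and the fitted log2 fold change was 4.10, or 4.82 without SASCs replicate 1. PASCs and SASCs held 3 counts each.

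Cdh13, T-cadherin, was higher in both visceral groups than in SASCs by less than 2-fold. The gene spans chromosome 19 from 50848793 to 51971615. It stood at 17.2, 18.7 and 18.3 CPM in SASCs, at 30.4, 30.5 and 31.2 CPM in PASCs, and at 29.3, 32.3 and 31.2 CPM in EASCs. The SASCs samples lay below all others and the other two groups overlapped. The log2 fold change of PASCs against SASCs was 0.77 (SE 0.0781, adjusted p = 1.51e-09 by edgeR's quasi-likelihood test), that of EASCs against SASCs 0.78 (SE 0.0780, not tested), and that of EASCs against PASCs 0.01 (SE 0.0749, adjusted p = 0.944 by that test).

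Cdh2, Cdh5, Cdh11 and Cdh13 are the members whose level the choice did not name and whose test did not depend on the filter. All members were still chosen with earlier results of these data known, so their p-values are not free of the choice. Among these 4, Cdh11 was a higher DEG and Cdh5 a lower DEG in PASCs against SASCs. In that comparison 12.0% of all genes tested were higher and 14.9% lower. In EASCs against PASCs, Cdh2 and Cdh5 were higher DEGs and none of the 4 was lower, where 5.19% of all genes tested were higher and 2.20% lower. In EASCs against SASCs 13.6% of all genes tested were higher and 14.2% lower, and no call of a member is read from this contrast, which was used in the choice. PASCs and EASCs were both compared with the same SASCs samples.

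**Figure D3:**
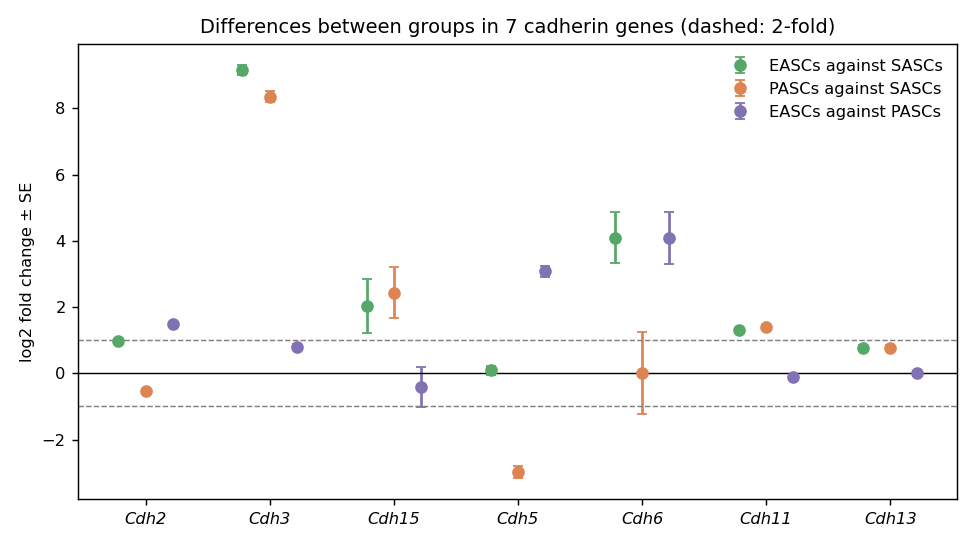
Log2 fold change (vertical axis) with SE of the 7 tested cadherins in EASCs against SASCs (green), PASCs against SASCs (orange) and EASCs against PASCs (purple), with dashed lines at a 2-fold difference. Cdh3 has the values farthest above 0 against SASCs, and Cdh5 in PASCs is the value farthest below 0.

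The make-up of the cadherins differed between the groups. The summed level of the 9 genes was 27.4 ± 1.04 FPKM in SASCs, 40.6 ± 2.28 in PASCs and 68.8 ± 1.33 in EASCs (mean ± SD, n = 3). Cdh2 made up 51.8% ± 1.57 of this sum in SASCs, 24.2% ± 0.393 in PASCs and 40.3% ± 0.231 in EASCs. Cdh3 made up 0.110% ± 0.0354 in SASCs, 24.6% ± 0.566 in PASCs and 25.3% ± 0.369 in EASCs. In PASCs these stood near each other and beside Cdh11 and Cdh13, where Cdh11 held 27.3% ± 0.580 and Cdh13 22.4% ± 0.910. Cdh11 held 15.4% ± 0.574 in SASCs and 15.1% ± 0.260 in EASCs, and Cdh13 held 19.5% ± 0.697 and 13.3% ± 0.685. Cdh5 took 13.1% ± 0.889 in SASCs, 1.10% ± 0.286 in PASCs and 5.56% ± 0.301 in EASCs.

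The ratio of Cdh11 to Cdh2 in FPKM was 0.297 ± 0.0167 in SASCs, 1.13 ± 0.0312 in PASCs and 0.374 ± 0.00496 in EASCs (SD, n = 3). PASCs were the only group of the 3 in which Cdh11 was above Cdh2 per length. With 3 samples against 3, a two-sided exact permutation test cannot go below p = 0.1. That exact permutation test gave p = 0.1 for this ratio in PASCs against SASCs and in EASCs against PASCs. The shares are given without a test, because their sum holds Cdh3, whose level in SASCs was part of the choice. Between EASCs and SASCs the share of Cdh11 overlapped.

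**Figure D4:**
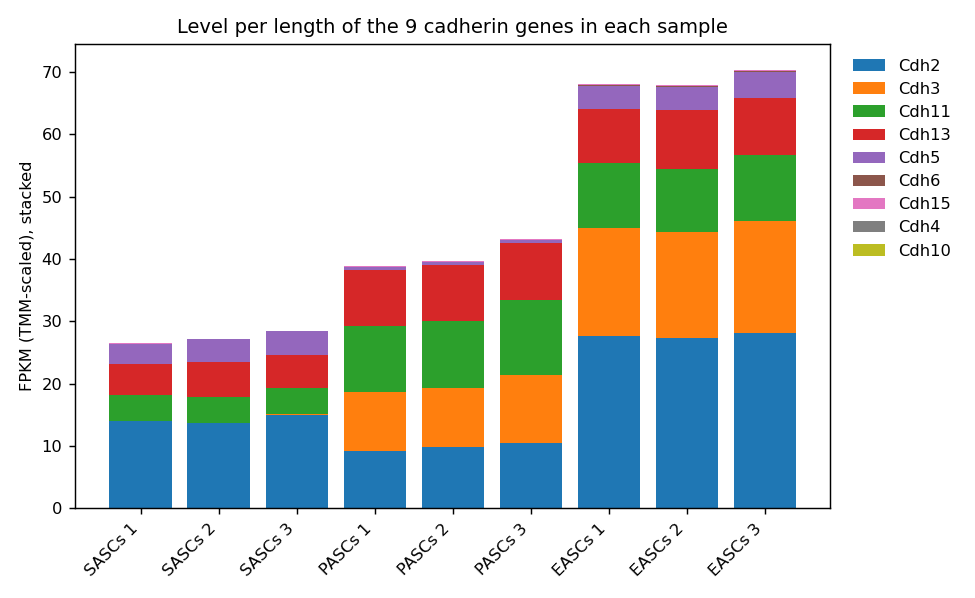
Summed FPKM (vertical axis, from 0) of the 9 cadherin genes in each of the 9 samples, stacked by gene. The sums span 26.4 to 28.5 FPKM over the SASCs samples, 38.9 to 43.2 over the PASCs samples and 68.0 to 70.3 over the EASCs samples, with Cdh3 a thin line at most in SASCs.

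The catenins and other proteins that bind cadherins were followed as a list of 22 symbols, of which 19 were tested. In EASCs against SASCs 5 were higher, 1 was lower and 13 did not pass, beside 13.6% of all genes tested higher and 14.2% lower, and the median log2 fold change was 0.53 beside 0.01 for all genes tested. In PASCs against SASCs 4 were higher, 1 was lower and 14 did not pass, beside 12.0% higher and 14.9% lower, with a median of 0.57 beside -0.01, and without TMM scaling 2 partners were DEGs in place of 5. Plekha7 is among the higher ones in both and Ctnna3 is the lower one in EASCs, and as both had few counts in a group, these counts are a description. In EASCs against PASCs none was a DEG in edgeR's test or in DESeq2, beside 5.19% of all genes tested higher and 2.20% lower in edgeR's test. At any fold 11 had an unadjusted p under 0.05 and 10 an adjusted p under 0.05. The share of all genes at any fold is not given, so nothing is read from those counts. The median was 0.14 beside -0.01.

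Among the core catenins, Ctnna1 (alpha-catenin) stood at 280.1 ± 7.31 CPM in SASCs, 406 ± 8.96 in PASCs and 447 ± 12.3 in EASCs (SD, n = 3). Ctnnb1 (beta-catenin) stood at 322 ± 9.59, 338 ± 3.09 and 384 ± 8.14 CPM, and Ctnnd1 (p120-catenin) at 250.3 ± 4.17, 245 ± 7.38 and 336 ± 13.9 CPM in the same order. None of these was a DEG in any comparison. Jup, plakoglobin, which takes the place of beta-catenin in some junctions, stood at 69.4 ± 3.15 CPM in SASCs, 24.1 ± 0.579 in PASCs and 43.3 ± 2.69 in EASCs. Jup was the lower partner in PASCs against SASCs, at a log2 fold change of -1.53 (SE 0.0687, adjusted p = 4.31e-17 by edgeR's quasi-likelihood test).

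Vcl, vinculin, which ties junctions to actin, rose by 1.66 on the log2 scale in EASCs (SE 0.0621, adjusted p = 6.06e-19) and by 1.24 in PASCs (SE 0.0616, adjusted p = 3.61e-16), both against SASCs by edgeR's quasi-likelihood test. Zyx, zyxin, an actin-binding LIM protein, rose by 1.70 in EASCs (SE 0.0546) and by 1.23 in PASCs (SE 0.0543). Plekha7, which links p120-catenin to microtubules, was 0.257 ± 0.0542 CPM in SASCs, 1.38 ± 0.154 in PASCs and 1.65 ± 0.0480 in EASCs. Ctnna3, alpha-T-catenin, had 30 counts in SASCs, 15 in PASCs and 5 in EASCs. Both enter the counts of the list above as a description. Reads of Zyx could be shared with the overlapping gene Epha1 on the other strand, which reached 176 counts against 8039 for Zyx.

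Nectins, which form junctions beside cadherins, gave 4 tested genes. Pvrl1, Pvrl2 and Pvrl3 were not DEGs in any comparison. Pvrl4 (nectin-4) had 2 counts in SASCs, 41 in PASCs and 146 in EASCs. It was past the DEG threshold in each comparison, but it passed the filter on low counts through the groups where it was higher, so no call is read from it, and with only PASCs and SASCs fitted 0 nectins were past it. The pooled ratio of PASCs to SASCs was 20.8, with a 95% counting interval of 5.40 to 178, and that of EASCs to SASCs was 75.0 (interval 20.4 to 625). The medians of the 4 genes were 0.05 in EASCs against SASCs, 0.03 in PASCs against SASCs and 0.23 in EASCs against PASCs.

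Enzymes that process cadherins or set their turnover gave 21 tested genes. Against SASCs, 4 were lower in EASCs and 5 in PASCs, beside 14.2% and 14.9% of all genes tested. None was higher in either, beside 13.6% and 12.0% of all genes tested. The medians were -0.25 and -0.27 beside 0.01 and -0.01 for all genes. In EASCs against PASCs 1 was higher and none lower, beside 5.19% of all genes tested higher and 2.20% lower, with a median of 0.07 beside -0.01. Pcsk6, a proprotein convertase, stood at 89.1 ± 1.85 CPM in SASCs, 16.0 ± 0.990 in PASCs and 29.2 ± 1.95 in EASCs. Psen2, a subunit of gamma-secretase, stood at 48.5 ± 3.75, 8.09 ± 0.511 and 17.5 ± 0.786 CPM, and was the gene higher in EASCs than in PASCs, by 1.11 on the log2 scale (SE 0.0956, adjusted p = 3.55e-10 by edgeR's quasi-likelihood test). Fyn, a Src family kinase, stood at 203 ± 6.40, 71.8 ± 1.85 and 57.3 ± 1.74 CPM, and Ptprk, a receptor phosphatase, at 36.4 ± 3.01, 8.90 ± 0.854 and 17.5 ± 0.616 CPM. All of these 4 were lower in both visceral groups than in SASCs. Ptprk overlaps LOC103690149 on the other strand, which reached 308 counts against 948.

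Atypical cadherins, among them protocadherins, gave 18 tested genes of 29 listed. In EASCs against SASCs 4 were higher and 8 lower, beside 13.6% and 14.2% of all genes tested, with a median of -0.29 beside 0.01. In PASCs against SASCs 1 was higher and 9 lower, beside 12.0% and 14.9%, with a median of -0.74 beside -0.01. In EASCs against PASCs 5 were higher and 1 lower, beside 5.19% and 2.20%, with a median of 0.44 beside -0.01. Cdhr4 had 522 counts in SASCs, 3 in PASCs and 1 in EASCs, so that SASCs held 171 times the level of PASCs, with a counting interval of 58.4 to 834, and 508 times that of EASCs, with an interval of 90.9 to 20120. Pcdh12, a protocadherin of endothelial cells, stood at 3.65 ± 0.649 CPM in SASCs, 0.425 ± 0.297 in PASCs and 2.61 ± 1.27 in EASCs. Pcdh17 had 67 counts in SASCs, 4 in PASCs and 16 in EASCs. Pcdh20 had 3, 7 and 67 counts, Celsr2 4, 34 and 51, Clstn2 18, 40 and 119, and Cdhr2 56, 25 and 88 counts in the same order. Genes with so few counts in one group passed the filter on low counts through the others, so the counts of DEGs in the list are a description.

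Of 14 other genes named Cdh and a number, 3 were tested. The remaining 11 reached 9 counts at most in a sample, and 2 of them had none in any sample. Cdh17 had 206 counts in SASCs, 108 in PASCs and 13 in EASCs, Cdh23 had 420, 101 and 106, and Cdh24 had 66, 242 and 196. Cdh23 was lower and Cdh24 higher in both visceral groups than in SASCs, as DEGs. Cdh17 passed the filter on low counts through SASCs and PASCs, so no call of EASCs is read from it. The 3 medians were -1.94, -0.90 and -0.29 in EASCs against SASCs, PASCs against SASCs and EASCs against PASCs. Cdh17 and Cdh23 are uncertain, since Ube2w overlaps Cdh17 on the same strand with up to 1072 counts and MGC112715 overlaps Cdh23 on the other strand with up to 4276 counts.

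**Figure D5:**
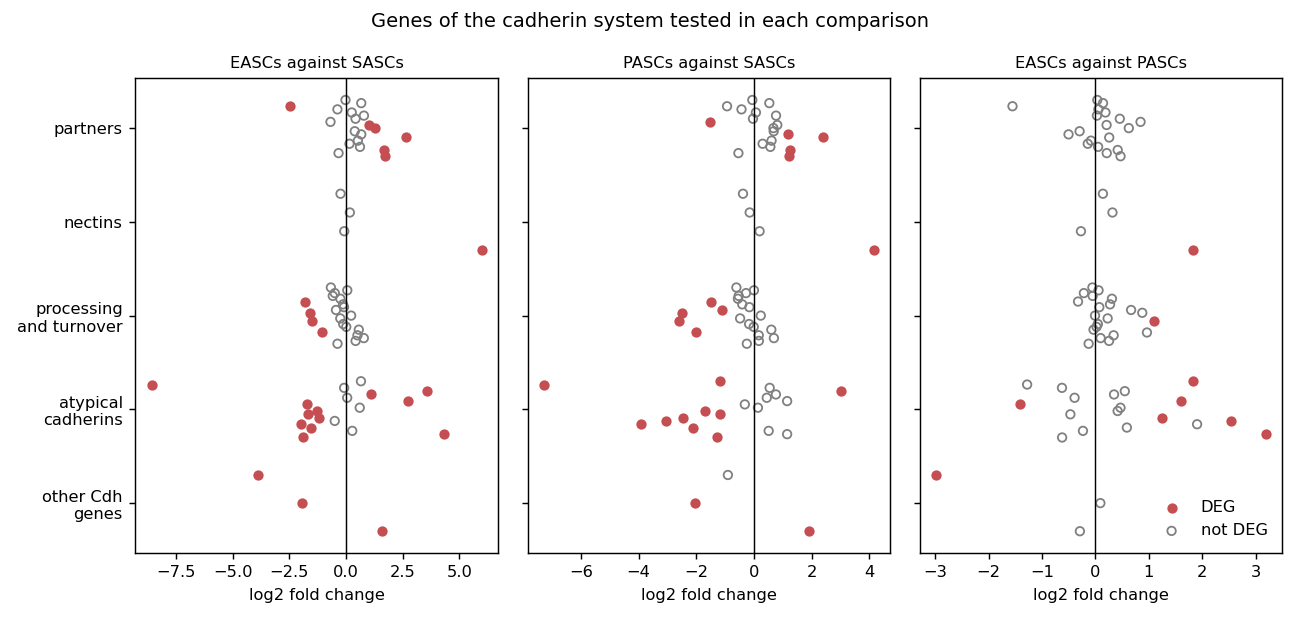
Log2 fold change (horizontal axes, a scale for each panel) of each tested gene in the lists of partners, nectins, processing genes, atypical cadherins and other Cdh genes, in EASCs against SASCs, PASCs against SASCs and EASCs against PASCs. Filled points are DEGs, and in the last panel none of the 19 partners is filled, where 5.19% of all genes tested were higher DEGs and 2.20% lower.

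Of 11 mesothelial markers 8 were tested, and 8 were higher DEGs in PASCs and 7 in EASCs against SASCs, beside 12.0% and 13.6% of all genes tested higher. These counts are a description, since Upk3b, Krt18 and Bnc1, with 2, 0 and 10 counts in SASCs, passed the filter on low counts through the visceral groups. The summed level of the 11 was 8.16 to 8.58 FPKM for SASCs, 37.0 to 38.4 for PASCs and 45.5 to 50.6 for EASCs. Wt1, a transcription factor of mesothelium and visceral fat, ranged from 1.83 to 2.00 CPM over the SASCs samples, from 35.1 to 37.4 over PASCs and from 51.3 to 54.97 over EASCs, while Krt19 had 12 counts in SASCs, none in PASCs and 2 in EASCs. Of 12 epithelial markers only 3 were tested, and the summed level of the 12 was 0.890 to 1.40 FPKM for SASCs, 60.6 to 63.0 for PASCs and 30.1 to 31.6 for EASCs, most of it from Krt7. Krt7 was lower in EASCs than in PASCs (log2 fold change -1.03, SE 0.0573, adjusted p = 4.45e-14 by edgeR's quasi-likelihood test) and Krt14 had 102 counts in PASCs and 39 in EASCs, while Epcam had 1 count in PASCs and 46 in EASCs, Pax8 had 53 and 65, and Cldn4 had 11 and 17. Esrp1, Ovol1 and Cldn7 had the most counts in SASCs. Esrp1 had 17 counts in SASCs, none in PASCs and 3 in EASCs, Ovol1 35, 17 and 26, and Cldn7 7, 1 and 1. Krt5, Krt20 and Grhl2 had at most 2 counts in any group. The part of these cells in the level of Cdh3 was not tested.

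For the other lists, mural cell markers summed to 27.9 to 29.4 FPKM for SASCs, 22.3 to 25.2 for PASCs and 65.7 to 67.4 for EASCs. Myh11 and Mcam gave most of the sum in EASCs, and of the 7 tested 3 were higher and 4 lower in EASCs than in SASCs, beside 13.6% and 14.2% of all genes tested, the lower ones being Rgs5, Notch3, Kcnj8 and Abcc9. Schwann cell and neural markers summed to 34.8 to 39.7, 38.1 to 39.6 and 66.9 to 73.1 FPKM, with Foxd3 at 0 in all samples. Tubb3 gave most of that sum in PASCs and EASCs, while in SASCs S100b (mean 18.6 FPKM) and Tubb3 (mean 18.1 FPKM) gave like parts. Leukocyte markers summed to 30.2 to 34.1, 79.9 to 82.9 and 119.6 to 126.5 FPKM, with Cd3e at 0 in all samples and most of the sum in EASCs from Lyz2.

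The genes whose pattern was most like that of Cdh3, Cdh2 and Cdh11 were taken by the root mean square difference of centred log2 CPM over the 9 samples. For Cdh3 these were Prss35 (0.422), Anxa8 (0.823), Zbtb7c (0.924), Cnn1 (0.937) and Olr1 (1.05). Prss35 stood at 0.756 ± 0.0307 CPM in SASCs, 89.6 ± 2.60 in PASCs and 164 ± 6.94 in EASCs. For Cdh2 they were Mrc1 (0.108), Synpo2 (0.147), Tead2 (0.152), Hoxb6 (0.155) and Itga8 (0.161), and Itga8, an integrin subunit, stood at 75.6 ± 3.42, 40.1 ± 0.993 and 128 ± 2.47 CPM. For Cdh11 they were P4ha3 (0.0556), Limk2 (0.0629), Asns (0.0669), Slc39a13 (0.0719) and Hpcal1 (0.0728).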

How the data were processed

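The authors sequenced RNA from 9 samples, aligned reads to the rat genome with TopHat, and deposited raw counts for 35362 genes. The methods name the build rn6 and the submitters' processing notes list rn5 and TopHat2. Positions are given as deposited and taken as rn6. The counting tool, and whether strand was used, are not given in the sources used here. The methods give 6 replicates per group, and 3 per group were analysed here. Samples were grouped by their labels.

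Counts were scaled by TMM (factors 0.740 to 1.23), filtered with filterByExpr and fitted with edgeR 4.0.16 in R 4.3.3, as 3 groups in 1 quasi-likelihood model without a block. P-values were adjusted over 14770 genes by Benjamini-Hochberg, and limma 3.58.1 was loaded by edgeR. CPM and FPKM were computed from the counts with the deposited lengths. Where a group was near 0, pooled counts were compared with exact conditional binomial intervals (95%). The script was tested on simulated data. The chi-square per degree of freedom between replicates was 4.41 to 16.8, so no sample was taken as a duplicate. Alternatives were DESeq2 1.42.0, no filter, a replicate block, no TMM, ribosomal RNA genes left out, 2 groups only, any fold change, and leaving out each sample.

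The 9 members and the gene lists were chosen with earlier results of these data known. All members are named. Of each list, at most 4 DEGs per comparison with the largest absolute log2 fold change are named, with Ctnna1, Ctnnb1, Ctnnd1 and Jup, the 5 genes most like Cdh3, Cdh2 and Cdh11, and the leading or absent markers. The lists were partners, nectins, processing genes, atypical cadherins, other Cdh genes, and mesenchymal, endothelial, muscle progenitor, mesothelial, epithelial, mural, Schwann cell and neural, and leukocyte markers. The permutation test of shares was planned and run in all 3 comparisons, and its p-values are not printed, since the sum holds Cdh3. For the 9 members no p is printed for EASCs against SASCs, the contrast used to choose them.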

Additional observations from a re-analysis of the deposited data

Results flagged for a closer look

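Cdh2 differed from SASCs in opposite directions in the other two groups, with every EASCs sample above and every PASCs sample below the SASCs samples. The difference between them is the comparison of EASCs with PASCs, a log2 fold change of 1.50 (SE 0.0607, adjusted p = 4.05e-17 by edgeR's quasi-likelihood test). The criterion at first also asked for a DEG call against SASCs, which Cdh2 does not have, and this condition was dropped after the values were seen. Groups of 3 samples were not tested for outliers.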

How the results depend on the processing

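Without TMM the median log2 fold change of all genes moved to -0.39 in EASCs and -0.33 in PASCs against SASCs, so that differences from SASCs depend on the scaling. In that setting 2 partners were DEGs in PASCs against SASCs (5 with TMM), Cdh5 in EASCs against SASCs was -0.32, Cdh6 in PASCs against SASCs -0.29, and Cdh13 in EASCs against PASCs -0.0588. DESeq2 and the fit with no filter each called 5 other Cdh genes in EASCs against SASCs in place of 3. With only the 2 groups fitted, 0 nectins were DEGs in PASCs against SASCs in place of 1. At any fold change, 18, 15 and 10 partners, 3, 4 and 3 nectins, and 17, 16 and 10 processing genes passed in EASCs against SASCs, PASCs against SASCs and EASCs against PASCs, and 12 atypical cadherins in the last, by construction of the wider threshold. The share of all genes tested that passed at any fold is not given, so nothing about the lists is read from these counts. Cdh6 in PASCs against SASCs, with 3 counts in each group, was -0.0125 in DESeq2. Leaving out 1 sample gave -3.13 to 0.73 for it (-0.50 without SASCs replicate 2, -3.13 without PASCs replicate 2), -0.0243 to 0.0477 for Cdh13 in EASCs against PASCs (below 0 without EASCs replicate 2), and 1 to 2 processing genes in EASCs against PASCs (2 without PASCs replicate 1). Without TMM the members past the threshold in EASCs against SASCs numbered 2 in place of 4, from which nothing is read, since that contrast was used in the choice and Cdh3, Cdh6 and Cdh15 are among the 4. Of the log2 fold changes of single members under the alternatives, 8 reversed and 6 untested ones moved by more than the spread between replicates. The cause of these changes was not tested. Depth limits Cdh4, Cdh6, Cdh10 and Cdh15.

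Samples with the same replicate number showed no shared deviation (correlations -0.0348 to 0.0380). With so few samples in a group, this cannot exclude that equal numbers share an animal or a batch. With a replicate block, Cdh6 in PASCs against SASCs was -0.013, 6 partners were DEGs in EASCs against SASCs and 5 in PASCs against SASCs, and no count moved by over 1.5 times.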
